A study of Mus musculus with 3 samples.

Results

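Basal cells of the interfollicular epidermis (IFE) were taken as the kept cells in which Krt14 and Krt5 together made up at least 1% of the unique molecular identifiers (UMIs), Krt1 and Krt10 together under 0.5% and Krt79 under 0.05%, with at least 2 UMIs of Ly6a, at most 2 of Sox9 and none of Wnt16, Top2a or Mki67. This gate held 651 of 8851 kept cells. It took 136 of 2109 kept cells at P38 (6.45%, 95% interval 5.44 to 7.58), 59 of 3502 at 6 months (1.68%, 1.28 to 2.17) and 456 of 3240 at 12 months (14.1%, 12.9 to 15.3). All intervals given here are exact, on binomial or Poisson counts, and cover counting error only. The shares follow from the gate and from how cells were collected, so they are a description of each library.

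Cells of mouse back skin were profiled by droplet single-cell RNA sequencing (10x Genomics 3' chemistry, version 3) with 1 library at each of P38, 6 months and 12 months, and each library stands for 1 age only. The labels give the genotype as Wildtype and the treatment as No. The study describes Krt14-H2B-GFP mice, in which the Krt14 promoter drives a nuclear GFP, and gives P38 as male with hair follicles in catagen, 6 months as female with follicles mostly in anagen, and 12 months as male with telogen and anagen follicles mixed. The study also describes sorting of GFP positive cells, while the labels describe dissociated back skin loaded with no sort. Age, sex, hair cycle stage, cell collection and library therefore cannot be told apart in any difference between ages, and no test between ages was possible. The number of animals behind a library is not given in the sources used here.

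The epidermis renews from its basal layer, where keratinocytes hold on to the basement membrane through integrins and hemidesmosomes and express the keratin pair Krt14 and Krt5. Cells that leave this layer switch to Krt1 and Krt10, form the spinous layer and later cornify, while the hair follicle keeps its own stem cells in the bulge. Notch ligands, Wnt proteins and growth factors of basal cells are known parts of the signalling between these layers.

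Depth differed between libraries. The median IFE basal cell held 19264 UMIs and 3590.5 genes at P38, 14940 UMIs and 3334 genes at 6 months and 12707.5 UMIs and 2816 genes at 12 months, and all IFE basal cells together gave 2721093, 885273 and 5973522 UMIs. Kept cells of any kind held a median of 16170 UMIs at P38, 1019 at 6 months and 11438.5 at 12 months. At 6 months the stated filter left 3502 cells, more than the study describes for that age. Libraries of 6 and 12 months shared 136 cell barcodes, and 1 IFE basal cell carried such a barcode. Mitochondrial transcripts took a median of 4.25%, 3.71% and 5.17% of the UMIs of IFE basal cells at P38, 6 months and 12 months, and ribosomal protein transcripts 29.5%, 27.0% and 34.6%.

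The edges of the gate were crowded in some criteria. For Ly6a, which encodes the surface protein Sca-1, the median was 5 UMIs per IFE basal cell at P38, 4 at 6 months and 5 at 12 months, and 21, 12 and 64 cells sat at the threshold itself. Cells that failed by Ly6a alone numbered 102, 361 and 138. The keratin edge was as tight at 12 months, where the nearest cell inside had 1.00061% Krt14 and Krt5 and the nearest outside 0.999739%, and 261 cells failed by this criterion alone. For Sox9 27, 5 and 55 cells failed alone, for Krt1 and Krt10 11, 4 and 7, for Krt79 1, 0 and 3, and for the proliferation genes Top2a and Mki67 30, 23 and 85. The Wnt16 criterion alone turned away 58, 20 and 231 cells, which are compared further on.

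Levels are given as counts per 1000000 UMIs (CPM) of the summed UMIs of a cell class in a library, and values for 3 libraries are in the order P38, 6 months and 12 months. The 3' chemistry counts transcript ends, so no level is divided by gene length, and levels are set against each other for the same gene only. Krt14 (GRCm38 chromosome 11, 100203162 to 100207548) had 13756, 12101 and 11511 CPM in IFE basal cells, against 1144, 658 and 514 CPM in spinous cells, and Krt5 had 8704, 7166 and 7161 against 909, 740 and 934 CPM. In T cells, which are not known to make these keratins, Krt14 stood at 102 CPM at 6 months and 127 CPM at 12 months, and levels of this order were read as background. Krt14 and Krt5 varied little between libraries, while the gate itself used them.

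The markers Thbs1 and Mt2 were not in the gate. Thbs1 (chromosome 2, 118111876 to 118127133), which encodes the matricellular protein thrombospondin 1, had 1561, 969 and 177 CPM in IFE basal cells, against 113, 146 and 11.2 CPM in spinous cells. It was higher in IFE basal than in spinous cells in every library, and the 12 months level was the lowest of the IFE basal cells. Set against outer bulge cells, the hair follicle stem cells, Thbs1 differed little, with 1561, 969 and 177 CPM in IFE basal and 1261, 624 and 182 CPM in outer bulge cells, so it did not separate the 2 basal populations. Mt2, which encodes a metallothionein that binds zinc and copper, had 3202, 1256 and 1633 CPM in IFE basal cells, 1041, 457 and 809 CPM in spinous cells and 1134, 97.8 and 472 CPM in outer bulge cells, and was the highest in IFE basal cells in each library.

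The label was checked with further genes of basal keratinocytes. Col17a1, a hemidesmosome collagen, had 1132, 1252 and 864 CPM in IFE basal cells, against 378, 346 and 298 CPM in spinous cells. Krt15 had 7204, 7451 and 7607 CPM, against 3640, 2983 and 2367 CPM in spinous cells. Trp63, the transcription factor p63 that epidermal cells need, had 267, 351 and 250 CPM in IFE basal cells and 192, 255 and 209 CPM in spinous cells, so it did not tell these classes apart. The bulge gene Cd34 had 3, 0 and 8 UMIs in all IFE basal cells together. Some genes of the upper hair follicle were raised in part of the 12 months cells, described further on with Sostdc1. Genes of 10 lists of other skin cell types were summed as well, and at 12 months several lists had most of their genes detected. There, 71 of 456 cells held 3 or more UMIs of the fibroblast list and 70 of the sebaceous list. For the list of Langerhans cells and macrophages there were 40 such cells. Melanocyte genes summed to 4.04, 4.52 and 4.69 CPM with 2, 2 and 4 of 8 genes detected, and endothelial genes to 0.735, 0 and 1.51 CPM with 2, 0 and 2 of 6 detected. T cell genes summed to 13.6, 22.6 and 63.1 CPM (3, 3 and 8 of 9 genes), and genes of Langerhans cells and macrophages to 16.9, 45.2 and 67.8 CPM (8, 8 and 12 of 12). Both lists were the highest at 12 months, and Cd2 of T cells was at 0 in every library. Thy1 alone held 34, 15 and 348 UMIs, out of totals of 37, 20 and 377 for the T cell list. Cd3e, Cd3g and Trac had only 7, 4 and 5 UMIs in the 12 months library. The T cell sum thus mainly describes Thy1. Fibroblast genes summed to 123, 58.7 and 250 CPM (2, 5 and 8 of 8 genes). Sparc, a matrix gene, gave 333 of the 336 UMIs at P38 and 46 of the 52 at 6 months, and at 12 months 908 of the list's 1492 UMIs lay in 1 cell. Sebaceous genes summed to 84.2, 141 and 92.9 CPM with Scd3, Awat1 and Pparg at 0 in all libraries, and the list for hair shaft and inner root sheath cells to 8.82, 47.4 and 29.3 CPM with Krt31 and Krt81 at 0. The lists of muscle and pericytes, of Merkel cells and of red blood cells stood between 0.367 and 33.9 CPM in each library.

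**Figure D1:**
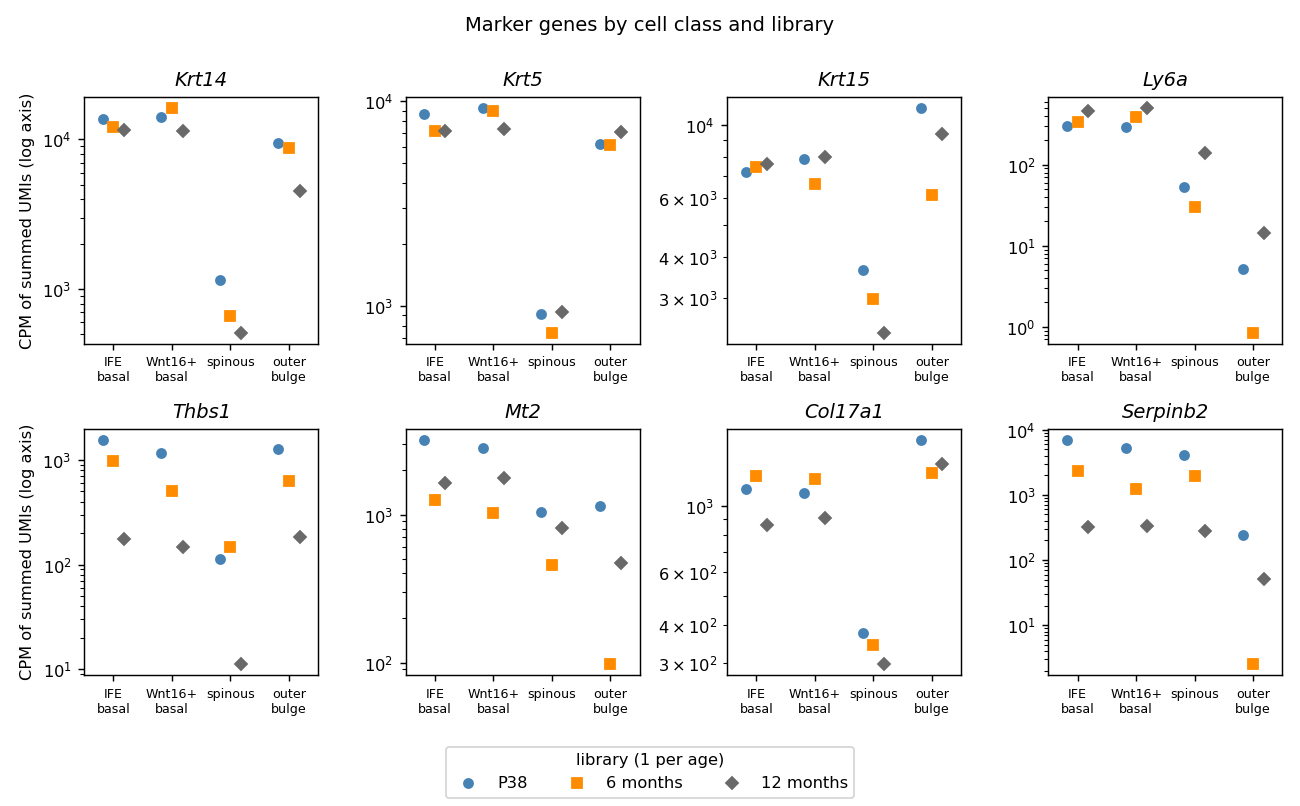
Levels of 8 genes in 4 cell classes, as CPM of the summed UMIs on a log axis, with 1 point per library. The gate used Krt14, Krt5 and Ly6a, so their separation follows from it. Col17a1, which it did not use, is higher in IFE basal than in spinous cells in each library, and Thbs1 and Serpinb2 have the lowest IFE basal level at 12 months.

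Mt1 and Mt2, neighbours on chromosome 8, are shown with their promoters because Mt2 is a marker here and both genes had their highest level at P38. Both sequences are from RefSeq (GRCm38.p6, plus strand, 300 bases around the annotated start). Capitals mark every match, on either strand, of TGCACNC or TGCGCNC, the core of the metal response element that the zinc sensing factor Mtf1 is known to bind.
Mt1, chr8:94178839-94179138: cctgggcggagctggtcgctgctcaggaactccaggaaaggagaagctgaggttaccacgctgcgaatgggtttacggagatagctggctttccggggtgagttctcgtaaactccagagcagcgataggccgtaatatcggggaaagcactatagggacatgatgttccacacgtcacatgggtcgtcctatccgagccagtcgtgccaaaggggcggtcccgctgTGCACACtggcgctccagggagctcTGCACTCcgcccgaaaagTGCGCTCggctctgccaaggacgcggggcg
Mt2, chr8:94172368-94172667: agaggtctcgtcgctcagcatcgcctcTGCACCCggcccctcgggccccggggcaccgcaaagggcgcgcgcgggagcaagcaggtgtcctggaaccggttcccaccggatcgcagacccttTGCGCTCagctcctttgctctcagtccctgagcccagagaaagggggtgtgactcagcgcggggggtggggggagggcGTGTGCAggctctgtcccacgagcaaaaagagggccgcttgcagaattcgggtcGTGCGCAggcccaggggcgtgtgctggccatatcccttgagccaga
The Mt1 promoter held 3 matches and the Mt2 promoter 4, none overlapping another. Of 32851 promoters of this length, 25.7% held at least 1 match and 1.97% at least 3. A match is a description of the letters and says nothing of binding. In IFE basal cells Mt1 had 4601, 1961 and 2360.4 CPM, against 2065, 1123 and 1996 CPM in spinous cells. In single cells thinned to 3000 UMIs, the median was 10 UMIs of Mt1 at P38, 5.5 at 6 months and 5 at 12 months, and 7, 3 and 4 UMIs of Mt2. Across cells of 1 library, the Spearman correlation of Mt1 with Mt2 was 0.65 at P38 (136 cells), 0.39 at 6 months (58 cells) and 0.59 at 12 months (455 cells). These cells share their library and, after thinning, their depth.

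To describe what set IFE basal cells apart from the layer above, they were compared with spinous cells, gated by Krt1 and Krt10 at 1% or more, within each library (79, 47 and 147 spinous cells). Because the gates used these keratins, the ratios are a description. An exact sign-flip test over 3 libraries could not go below p = 0.25, and none was run. A gene was called when its ratio was at least 2-fold the same way in 3 of 3 libraries, with 0.5 counts added to each sum, and ratios are given as the mean log2 ratio with its SD over 3 libraries. IFE basal cells were higher for 421 of 8227 genes (5.12%) and lower for 380 (4.62%). The median log2 ratio of all genes was -0.02.

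The genes of adhesion to the basement membrane formed the largest block of higher genes. Of 22 measured genes of hemidesmosomes and the basement membrane, 17 were higher in IFE basal cells and none lower, with a median of 2.55 on the log2 scale. Itga3, an integrin chain that binds laminin 332, had 187, 75 and 315 UMIs in IFE basal cells, against 0, 1 and 0 UMIs in spinous cells. The laminin chain gene Lamb3 had 166, 224 and 150 CPM in IFE basal cells, against 10.2, 6.28 and 13.7 CPM in spinous cells (4.14 ± 0.79, n = 3). Both genes were close to absent from spinous cells in every library. The integrin pair of the hemidesmosome, Itga6 and Itgb4, stood at 2.10 ± 0.54 and 2.90 ± 0.83, Itgb1, the shared chain of most epidermal integrins, at 3.25 ± 0.53 and the collagen receptor chain Itga2 at 3.88 ± 0.97. Plec, which links hemidesmosomes to keratin, was higher by 1.49 ± 0.40, while its relative Dst, with 1.28 ± 0.44, stayed under 2-fold at 12 months. Basal identity genes outside the gate followed the same direction, with 7 of 10 higher, none lower and a median of 1.88. Extracellular matrix genes had 8 of 14 higher and none lower, among them Sparc, a collagen binding matricellular protein (122, 52.0 and 97.3 CPM, against 1.80, 3.14 and 3.31 CPM in spinous cells), and Serpinh1, the collagen chaperone (4.51 ± 0.20).

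Junction genes split. Of 24 measured, 3 were higher and 7 lower in IFE basal cells. The desmosomal cadherin gene Dsg2 and the P-cadherin gene Cdh3 were higher, by 3.78 ± 0.46 and 2.88 ± 0.87. Dsg1a, a desmosomal cadherin of the upper layers, had 172, 150.2 and 228 CPM in IFE basal cells, against 900.2, 784 and 1054 CPM in spinous cells (-2.32 ± 0.10), and the tight junction gene Cldn4 was lower by -2.85 ± 0.50. Nectin4 was at -4.86 ± 0.35. Of the genes of spinous differentiation outside the gate, 20 of 25 were lower and none higher, with a median of -3.54, and of those of granular differentiation 11 of 12 were lower, with a median of -4.21. Krtdap, a secreted protein of differentiating keratinocytes, had 62.5, 33.9 and 91.1 CPM in IFE basal cells, against 8610.1, 11228 and 11313 CPM in spinous cells. Krt77, a suprabasal keratin, had 118, 199 and 66.1 CPM, against 6018, 6033 and 4054 CPM. The metallothionein Mt4 went the opposite way to Mt2, with 15.8, 76.8 and 48.7 CPM in IFE basal cells and 1389, 775 and 1985 CPM in spinous cells.

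Signalling genes differed by role. Among the Notch genes, the ligands Jag2 and Dll1 were higher in IFE basal cells, with 73.9, 116 and 108 CPM of Jag2 against 2.39, 9.43 and 3.73 CPM in spinous cells (4.36 ± 0.73). The receptors Notch3 and Notch2 were lower, by -3.52 ± 0.37 and -1.82 ± 0.28, as was the feedback target Nrarp, by -2.31 ± 0.41. Ligands were thus on the IFE basal side and these receptors on the spinous side in every library, and over the list 4 of 13 genes were higher and 3 lower. Of 26 Wnt pathway genes 8 were higher and none lower, with a median of 0.61. Wnt10a had 194, 134 and 723 UMIs in IFE basal cells, against 15, 7 and 14 UMIs in spinous cells (3.66 ± 0.69). Wnt4, with a ratio of 1.34 ± 0.12, the ligand Wnt6 and Lgr6, the R-spondin receptor, were also higher. Growth factor and receptor genes had 15 of 39 higher and none lower, led by the matricellular genes Thbs2 (146, 67 and 212 UMIs, against 0, 5 and 2 UMIs) and Postn (4.96 ± 1.08) and by Nrg1, a ligand of ErbB receptors (3.63 ± 1.85).

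Among immune genes 9 of 41 were higher and 1 lower. The decoy receptor gene Il1r2 had 241, 268 and 171 CPM in IFE basal cells, against 8.38, 48.7 and 5.80 CPM in spinous cells, and Ifitm3, which restricts viruses, had 856, 762 and 643 CPM, against 91.6, 101 and 36.9 CPM. The chemokine gene Cxcl14 was higher by 2.17 ± 0.52. Ccl2 also passed in each library, but 110 of its 113 UMIs at 6 months and 55 of its 63 UMIs at 12 months lay in 1 cell each. The D cyclin genes Ccnd1 and Ccnd2, which drive entry into the cell cycle, were higher by 3.41 ± 0.53 and 3.37 ± 0.47, although cells with Top2a or Mki67 had been left out, and the inhibitor Cdkn2b was lower by -3.41 ± 0.15. The iron storage genes Ftl1 and Fth1 were higher by 3.77 ± 0.38 and 1.81 ± 0.15. Of 42 genes of oxidative phosphorylation none was called in either direction, and of 18 glycolysis genes 1 was higher, the lactate transporter gene Slc16a3. Of 21 genes of lipid and cholesterol synthesis 6 were lower, including Fdps (-2.25 ± 0.21), and none higher. Among transcription factors, 5 of 32 were lower, led by Zfp750 (-4.02 ± 0.36) and Grhl3 (-3.31 ± 0.24), factors of terminal differentiation, and none was higher. Outside the lists, the highest ratios also included Smoc2, a matricellular protein (481, 255 and 936 UMIs, against 2, 8 and 9 UMIs in spinous cells), Cbr2, Mmp3, Ctnnal1, Cysltr1, Dlk2, Slc2a5 and Antxr1, and the lowest included Krt78 (3, 0 and 1 UMIs, against 295, 102 and 286 UMIs), Mboat2, Gm94, 4833423E24Rik, Hal, Gsta2, Agpat4, Gsdma and Dnase1l3.

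**Figure D2:**
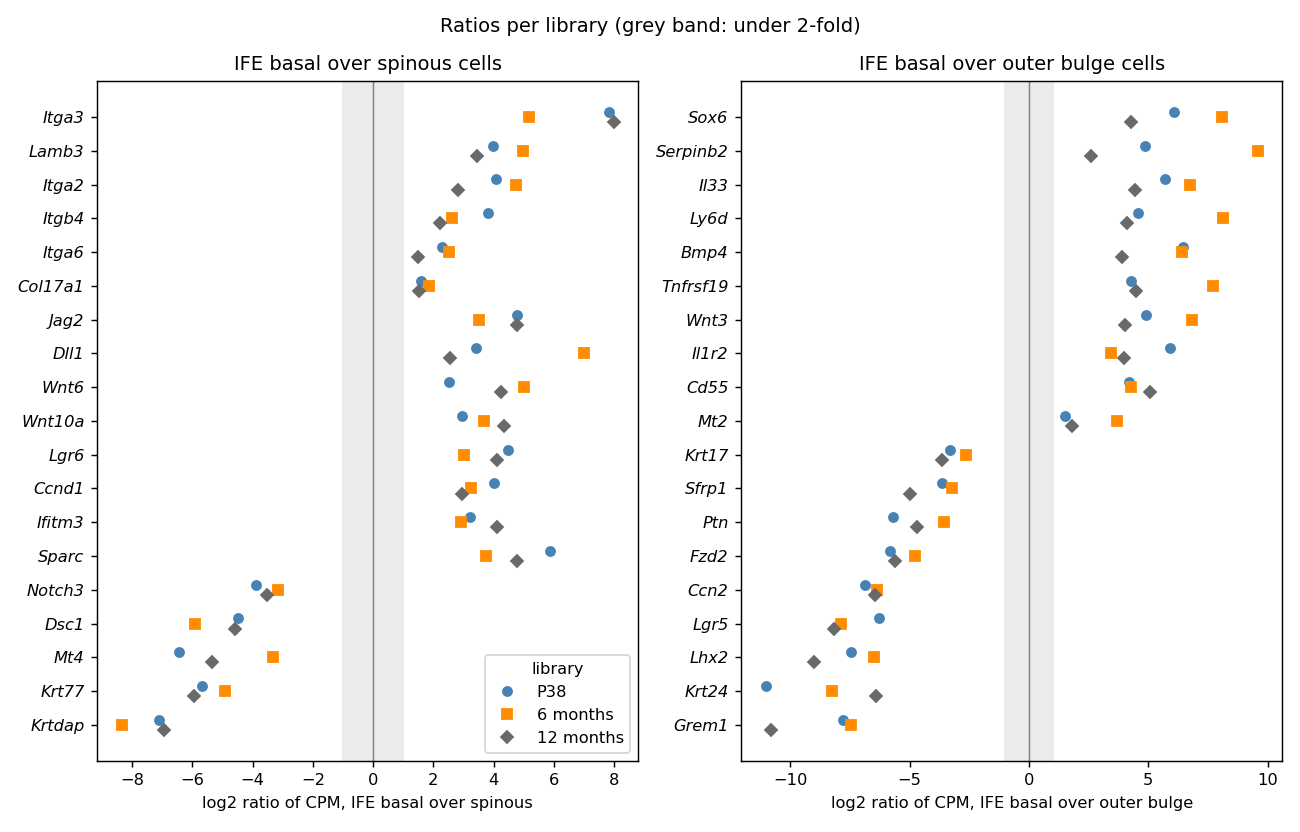
Log2 ratios of CPM in IFE basal over spinous cells (left) and over outer bulge cells (right), with 1 point per library and a grey band for ratios under 2-fold. Each of the genes drawn lies outside the band in the same direction in all 3 libraries, with wider spread in the right panel, where 16 outer bulge cells stood at 12 months.

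IFE basal cells were next set against outer bulge cells, gated by Krt14 and Krt5, Sox9 and Cd34 (222, 70 and 16 cells). At 12 months these 16 cells held 137692 UMIs in all, so that library adds little precision. IFE basal cells were higher for 257 of 9199 genes (2.79%) and lower for 614 (6.67%). The split moved with the scaling, to 339 higher and 447 lower with TMM factors, and the median log2 ratio of all genes was -0.20, so ratios are to be read against that shift. The gates used Sox9, Cd34 and Ly6a, both also required Krt14 and Krt5, and the contrast is a description.

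Most genes of the bulge were low in IFE basal cells. Of 20 measured bulge genes outside the gate 15 were lower and none higher, with a median of -3.80. Lhx2, a transcription factor of hair follicle stem cells, had 3, 3 and 7 UMIs in IFE basal cells, against 826, 426 and 90 UMIs in outer bulge cells. Lgr5, the R-spondin receptor, had 4, 0 and 3 UMIs, against 468, 158 and 23. Grem1, Krt24, Shisa2, Wfdc3, Mfge8, Sema3e, Tbx1 and Ccn2 completed the lowest 10. Krt17, a keratin of appendages, was lower in IFE basal cells by -3.21 ± 0.52, with 1991, 5397 and 3907 CPM in outer bulge cells. Krt15 was not called, with 7204, 7451 and 7607 CPM in IFE basal cells and 11189, 6152 and 9347 CPM in outer bulge cells. Col17a1 was not called either. Krt14 was required by both gates and was left out of the calls.

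Genes on the IFE basal side included Sox6, a transcription factor (229, 103 and 415 UMIs, against 4, 0 and 0 in outer bulge cells), Il33, an alarmin cytokine (293, 121 and 464 UMIs, against 7, 1 and 0), and Bmp4, a BMP ligand (97, 96 and 322 UMIs, against 1, 1 and 0). Each of these was close to absent from outer bulge cells. Ly6d, a surface protein of keratinocytes, had 2601, 2943 and 2208 CPM, against 111, 10.2 and 123 CPM. Serpinb2, Mmp3, Tnxb, Tnfrsf19, Il22ra2 and Rspo3 completed the highest 10. At 12 months, however, Mmp3, Il22ra2 and Rspo3 had 0 UMIs in outer bulge cells. The counting intervals of their log2 ratios began at -1.41, 0.598 and 0.739 there, so that of Mmp3 included no difference. Of 33 Wnt pathway genes 8 were higher and 12 lower. The ligand gene Wnt3 had 211, 128 and 346 UMIs in IFE basal cells, against 9, 1 and 0 in outer bulge cells. Dkk3, Fzd2 and the Wnt inhibitor Sfrp1 were lower, Sfrp1 with 33.1, 85.8 and 28.8 CPM, against 422, 812 and 915 CPM (-3.96 ± 0.92). Immune genes had 9 of 44 higher and 5 lower. Cd55, which protects cells from complement, had 265, 95 and 721 UMIs, against 19, 6 and 0, and Cd200, an inhibitory ligand for myeloid cells, had 5, 2 and 23 UMIs in IFE basal cells, against 524, 141 and 28. Genes of the hemidesmosome and basement membrane, which set IFE basal apart from spinous cells, had none higher and 5 of 25 lower here, and the matrix list had none higher and 9 of 19 lower, among them Postn (-3.26 ± 1.02).

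Cells that met the same gate but held at least 1 UMI of Wnt16 (58, 20 and 231 cells) differed in few genes from IFE basal cells. Of 7644 genes 1 was higher in IFE basal cells (0.0131%) and none was lower (0.00%), and no member of the 22 gene lists passed 2-fold in 3 of 3 libraries. The gene was Tubb6, a tubulin, with 40.4, 35.0 and 2.34 CPM in IFE basal cells, against 17.6, 0 and 0.628 CPM in Wnt16 positive cells, where it had 20, 0 and 2 UMIs. Thbs1 had 1561, 969 and 177 CPM in IFE basal cells, against 1164, 502 and 147 CPM, and Krt14 13756, 12101 and 11511 CPM, against 14100.2, 16114 and 11304 CPM. With Wnt16 taken at 3 or more UMIs, an alternative chosen after seeing the data, 13 genes were higher and 10 lower. A cell without a Wnt16 UMI may still express the gene, so these counts do not show that the classes are alike.

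Between ages, the IFE basal cells of 2 libraries were compared and a gene was called when it was at least 2-fold apart. At 6 months over P38, 1337 of 9563 genes were higher (14.0%) and 420 lower (4.39%). For 944 of the 1337 and 197 of the 420 the counting interval of the ratio left out a ratio of 1. With median-of-ratios scaling the split was 889 higher and 610 lower, and with TMM 861 and 639. At 12 months over P38, 1589 of 11159 genes were higher (14.2%) and 893 lower (8.00%), with intervals that left out 1 for 1199 and 817. At 12 months over 6 months, 908 of 10973 were higher (8.27%) and 1539 lower (14.0%), for 319 and 1173 with such intervals. There the split was 1188 higher and 1090 lower with median-of-ratios scaling, 1151 and 1189 with TMM and 1252 and 1051 without mitochondrial and ribosomal genes in the total. The median log2 ratio of all genes was 0.24, 0.15 and -0.18 for these 3 pairs, and each of the 3 pairs shares a library with the others. Xist had 0 UMIs at P38 and 12 months and 1637 CPM at 6 months, and the Y-linked Ddx3y had 0 UMIs at 6 months, in keeping with the sexes above.

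A wide contrast between ages was that of Serpinb2 (chromosome 1, 107511423 to 107535478), which encodes plasminogen activator inhibitor 2. IFE basal cells had 6989 CPM at P38 (95% interval 6890.5 to 7089.5), 2285 at 6 months (2187 to 2387) and 326 at 12 months (312 to 341), a log2 ratio of -4.42 for 12 months over P38 (-4.49 to -4.36). The 3 intervals do not overlap, but they leave out the spread among cells and between animals. Spinous cells had 4147, 1920 and 276 CPM, the same order, and T cells 8.20 CPM at 6 months and 23.9 at 12 months. F3 (chromosome 3, 121723537 to 121735048), tissue factor, the starter of blood clotting, had 609.7, 245 and 6.53 CPM, with UMIs in 81, 23 and 26 cells. At 12 months F3 was near its 3.98 CPM in T cells. Plaur, the receptor of urokinase, followed with 50.7, 19.2 and 0.502 CPM, so an inhibitor, a receptor of plasminogen activation and a clotting factor had their lowest level at 12 months.

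The promoters of Serpinb2 and F3 are shown because both transcripts were highest at P38 and lowest at 12 months. They are from RefSeq (GRCm38.p6, plus strand, 300 bases), and capitals mark each match of TGANTCA on either strand. This pattern takes any base at N and includes, but is wider than, the element bound by AP-1 factors such as Fos and Jun.
Serpinb2, chr1:107511173-107511472: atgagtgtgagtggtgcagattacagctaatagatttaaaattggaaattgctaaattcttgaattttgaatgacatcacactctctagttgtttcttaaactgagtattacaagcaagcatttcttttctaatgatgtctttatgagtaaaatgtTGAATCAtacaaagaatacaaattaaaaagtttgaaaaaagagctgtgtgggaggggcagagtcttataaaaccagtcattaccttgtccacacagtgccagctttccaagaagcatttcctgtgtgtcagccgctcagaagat
F3, chr3:121723287-121723586: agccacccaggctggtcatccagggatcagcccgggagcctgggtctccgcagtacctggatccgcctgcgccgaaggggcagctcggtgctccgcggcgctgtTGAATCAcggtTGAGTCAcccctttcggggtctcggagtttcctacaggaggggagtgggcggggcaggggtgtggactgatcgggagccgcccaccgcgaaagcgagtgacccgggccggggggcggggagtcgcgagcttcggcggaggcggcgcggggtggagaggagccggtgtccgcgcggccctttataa
The Serpinb2 promoter held 1 match and that of F3 held 2, none overlapping another. At least 1 match was in 7.81% of the 32851 promoters and at least 2 in 0.460%. A second start of Serpinb2 held the same match. These matches are letters, not shown to be sites.

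Further genes that were lower at 12 months over P38 grouped by known role. Hs3st1, an enzyme that modifies heparan sulfate, had 321 UMIs in 62 cells at P38 and 88 UMIs in 18 cells at 6 months, and 0 of 5973522 UMIs at 12 months. With 3 counts put in place of the 0, it was 235-fold lower at 12 months than at P38. The counting interval of its log2 ratio ended at -7.57. Ifi202b, an interferon inducible gene, had 1599, 709 and 35.5 CPM (-5.49, interval -5.70 to -5.29). Nppb and Mmp10 were at 0 UMIs at 12 months. With 3 counts put in place of the 0, they were 73.9-fold and 44.6-fold lower than at P38. Their log2 intervals ended at -5.88 and -5.14. At P38, however, Nppb had 47 of its 101 UMIs in 1 cell. Procr (-5.02), the transporter gene Slc6a14 (-5.10) and Pmp22 (-4.50) were also among the lowest 10, with F3 and Plaur. Thbs1 was lower as well (-3.14, -3.24 to -3.04). Plet1, a surface protein of the upper follicle, had 1009.5, 947 and 110.0 CPM, Lypd3 665, 317 and 66.1 CPM and the stress keratin gene Krt16 477, 365 and 78.0 CPM. The factor genes Fosl1 (-2.00) and Klf5 (-1.55) and the actin gene Actb (-1.47) were lower too. These genes differed at 6 months. Nppb and Procr had 0 UMIs there and Slc6a14 1 UMI, Thbs1, Ifi202b and Lypd3 lay between their P38 and 12 months levels, and Hs3st1, Plet1, Fosl1, Klf5 and Actb were within 0.24 of their P38 level on the log2 scale.

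**Figure D3:**
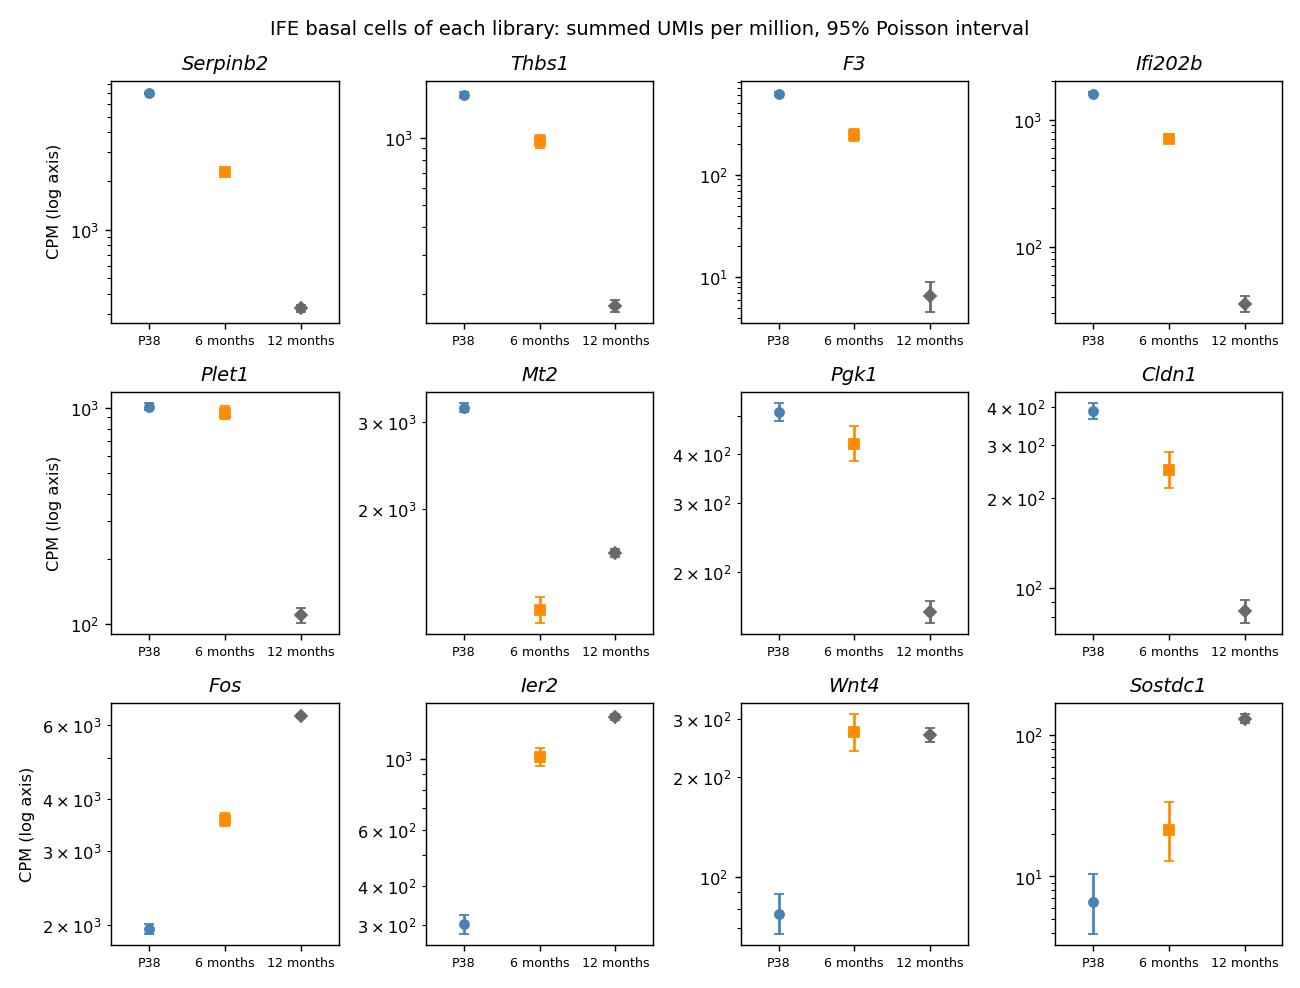
CPM of 12 genes in IFE basal cells of the 3 libraries on log axes of their own range, with exact 95% Poisson intervals of the counts as bars. Serpinb2, Thbs1, F3, Ifi202b, Plet1, Pgk1 and Cldn1 are lowest at 12 months, Fos, Ier2 and Sostdc1 highest at 12 months, Mt2 highest at P38, and Wnt4 is at 273 and 269 CPM at 6 and 12 months.

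Many glycolysis genes were lower at 12 months than at both earlier ages. Of 19 measured, 8 were lower (42.1%, beside 8.00% of all genes) and 1 higher at 12 months over P38, with a median of -0.98. At 12 months over 6 months 11 were lower (57.9%, beside 14.0%) and none higher, with a median of -1.07. Under the other scalings, thinning and left out cells these medians stayed between -1.10 and -0.86. Hk2, hexokinase 2, had 115, 64.4 and 24.3 CPM, Pgk1, phosphoglycerate kinase, 513, 426 and 159 CPM, and Aldoa, aldolase, 1033, 861 and 410.1 CPM. The lactate transporter gene Slc16a3 had 51.4, 97.1 and 16.9 CPM. At 6 months over P38 the list had a median of 0.06 and 2 higher and no lower genes, and the median was -0.20 with TMM, with 1 higher and 2 lower. Of 42 genes of oxidative phosphorylation none was higher at 12 months over P38 and 1 was lower, Cox7b, a subunit of cytochrome c oxidase (-1.81). Their median was 0.17 there, and 0.50 for 12 months over 6 months with none called, where 3 to 6 members passed as higher under the other scalings of the total.

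Some junction genes were lower at 12 months, with 7 of 24 lower and none higher over P38 (median -0.50). These were 29.2%, beside 8.00% of all genes. Over 6 months 5 of 24 were lower (median -0.66), a share of 20.8%, near the 14.0% of all genes. The tight junction genes Cldn1 and F11r had 388, 247 and 84.0 CPM and 169, 188 and 73.8 CPM, the desmosomal cadherin gene Dsg3 216, 210.1 and 91.6 CPM and the connexin gene Gja1 506, 394 and 204 CPM. Gjb2, connexin 26, had 0, 13 and 3 UMIs. Dsp, desmoplakin, was near its P38 level throughout, with 714, 874 and 701 CPM. Among the hemidesmosome and basement membrane genes, 5 of 24 were higher at 6 months over P38 (20.8%, beside 14.0% of all genes), including Plec (1.20) and Dst (1.03). At 12 months over P38 3 of 25 were higher and 4 lower, among the lower Itgb1 (-1.23), beside 14.2% and 8.00% of all genes. The list was thus near the share of all genes in both pairs. Some genes of cholesterol synthesis were highest at 6 months. Of the 24 lipid genes, 10 were lower and 1 higher at 12 months over 6 months, with a median of -0.82. The lower genes made up 41.7%, beside 14.0% of all genes. Cyp51 had 25.7, 101 and 19.8 CPM and Sqle, squalene epoxidase, 9.55, 38.4 and 3.35 CPM. At 6 months over P38 7 of 23 were higher (30.4%, beside 14.0% of all genes) and 1 lower, and 3 were higher with TMM.

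Several immediate early genes were higher at the later ages. At 6 months over P38 13 of 45 genes of the immediate early and heat shock list were higher and none lower (9 and 1 with TMM). At 12 months over P38 14 were higher and 8 lower. The higher genes made up 28.9% and 31.1%, beside 14.0% and 14.2% of all genes, and the 8 lower ones 17.8%, beside 8.00%. Fos had 1959, 3573 and 6308 CPM, Egr1 574, 1472 and 1597 CPM, Ier2 302, 1016 and 1356 CPM and Atf3 773, 2213 and 2515 CPM. Cebpb, a transcription factor, had 43.7, 409 and 259 CPM, and T cells had 344 CPM of it at 6 months and 1424 CPM at 12 months. Of the heat shock genes in this list, Hspa1b had 372, 1147 and 294 CPM, Hspa8 2588, 1746 and 1364 CPM and Hspb1 2365, 3001 and 1886 CPM, so they shared no order over the ages.

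Several Wnt and Notch genes had their lowest levels at P38. Of 28 Wnt pathway genes 17 were higher and none lower at 6 months over P38, with a median of 1.10 (9 and none with TMM or median-of-ratios scaling). At 12 months over P38 12 of 33 were higher and 1 lower. The higher genes made up 60.7% and 36.4% in these pairs, beside 14.0% and 14.2% of all genes. Wnt4 had 77.5, 273 and 269 CPM (1.82, interval 1.55 to 2.09, for 6 months over P38), Wnt10a 71.3, 151 and 121 CPM, and the Wnt target genes Axin2 and Rnf43 9.92, 22.6 and 25.9 CPM and 5.14, 24.9 and 22.1 CPM. Both targets and Wnt4 were close at 6 and 12 months, while Wnt3 had 77.5, 145 and 57.9 CPM. Of 13 Notch genes 5 were higher (38.5%, beside 14.0% of all genes) and none lower at 6 months over P38. The target gene Hes1 led them with 44.8, 329.8 and 153 CPM. Ccnd2 had 154, 706 and 326 CPM and Krt17 544, 761 and 1841 UMIs, a log2 ratio of 2.10 for 6 months over P38 and -1.48 for 12 months over 6 months, so both genes were highest at 6 months relative to the total. For Krt17, 162 of the 761 UMIs at 6 months lay in 1 cell. The inhibitor gene Cdkn1a, p21, had 413, 627 and 191 CPM. Gpha2, a glycoprotein hormone subunit, had 143 UMIs in 39 of 59 cells at 6 months, against 0 UMIs at P38. With 3 counts put in place of the 0, it was 147-fold higher at 6 months than at P38. The counting interval of its log2 ratio began at 6.88. At 12 months Gpha2 had 6 UMIs in 5 cells. Ier5l, with 3.67, 71.2 and 43.0 CPM, was also among the 10 highest ratios of 6 months over P38, as was Tnip3, but Tnip3 had 31 of its 52 UMIs in 1 cell.

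Several extreme ratios between ages rested on single cells or on gene copies. At 12 months over P38, Col1a1, Col1a2, Col3a1 and Dcn were among the 10 highest, and 7 of 456 cells held 768 of the 874 UMIs of these fibroblast genes. Ctsk had 44 of 51 UMIs in 1 cell, and Bcl2a1b 30 of 65. Vim, higher at 12 months over 6 months, had 40 of 96. Gm10076, Gm10260, Gm11361, Gm7324, Gm8797, Eif3j2, Gstp1 and Rnaset2b, which made up many of the other extremes, may share reads with near-identical copies and are uncertain. Gm10260 had 72, 0 and 1357 UMIs.

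Many of the age differences were also seen above the basal layer. Of the genes higher in IFE basal cells at 12 months over P38 and measured in spinous cells, 33.6% were 2-fold higher in spinous cells too (43.3% of those called there), and of the lower genes 37.2% (53.2%). Over all genes measured in both classes the shares were 7.82% and 5.48%. For 6 months over P38 the shares were 30.1% and 29.6%, beside 9.53% and 4.75% of all genes. Both classes come from the same 2 libraries in each pair, so differences between libraries and between ages enter both alike.

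Cells of 1 library also differed among themselves. Each cell was thinned to 3000 UMIs, which left 136, 58 and 455 cells, and the variance over the mean was taken for 825 genes. The 10 highest were Gm42418, Malat1, Serpinb2, Krt15, Fos, Krt14, Sfn, Actb, Jun and Hspb1, with means over libraries of 16.9 for Gm42418, 12.0 for Malat1, 11.6 for Serpinb2 and 6.35 for Hspb1, against a median over all genes of 1.13 to 1.16 in each library. The variance over the mean was not adjusted for the level of a gene, and Krt14 was in the gate. Serpinb2 had 21.5, 11.4 and 1.71 at means of 18.0, 6.26 and 0.930 UMIs, so its spread and its level were not told apart. Its median was 9 UMIs at P38 (0 to 88), 3 at 6 months (0 to 44) and 0 at 12 months (0 to 7), and 13 of 136, 18 of 58 and 229 of 455 cells had none. Fos had a median of 2 UMIs at P38 (0 to 45), 11.5 at 6 months (0 to 29) and 18 at 12 months (0 to 54). Krt15 by contrast had medians of 21, 22 and 21 UMIs with wide ranges in each library.

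At P38 and 6 months most cells rich in Serpinb2 were poor in Fos. The Spearman correlation across cells was -0.61 at P38 and -0.57 at 6 months, and 0.01 at 12 months, where nearly all cells had few Serpinb2 UMIs. With Jun it was -0.50, -0.46 and -0.04. At P38 and 6 months, but hardly at 12 months, Serpinb2 went with Sfn, which encodes the 14-3-3 sigma protein of keratinocytes (0.63, 0.73 and 0.15), with Thbs1 (0.56, 0.67 and 0.14), with F3 (0.64, 0.45 and -0.0043) and with Actb (0.55, 0.55 and 0.10). Fos went with Jun in every library (0.68, 0.59 and 0.56) and with Egr1 (0.73, 0.57 and 0.50). Krt15 and Krt14 ran against each other, with -0.34, -0.28 and -0.41. These are descriptions across 136, 58 and 455 cells that share a library, with no test. In IFE basal cells of P38 and 6 months, Serpinb2 and Fos thus ran against each other, while some P38 cells had few UMIs of either. Whether this was the main difference among the cells was not tested. Against Egr1, Sfn stood at only -0.21 and -0.18 there and Thbs1 at -0.23 and -0.17. The sign for Sfn turned at 12 months, with -0.32, -0.50 and 0.33 for Fos and -0.26, -0.31 and 0.41 for Jun. With Egr1 Sfn was at 0.43 at 12 months.

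**Figure D4:**
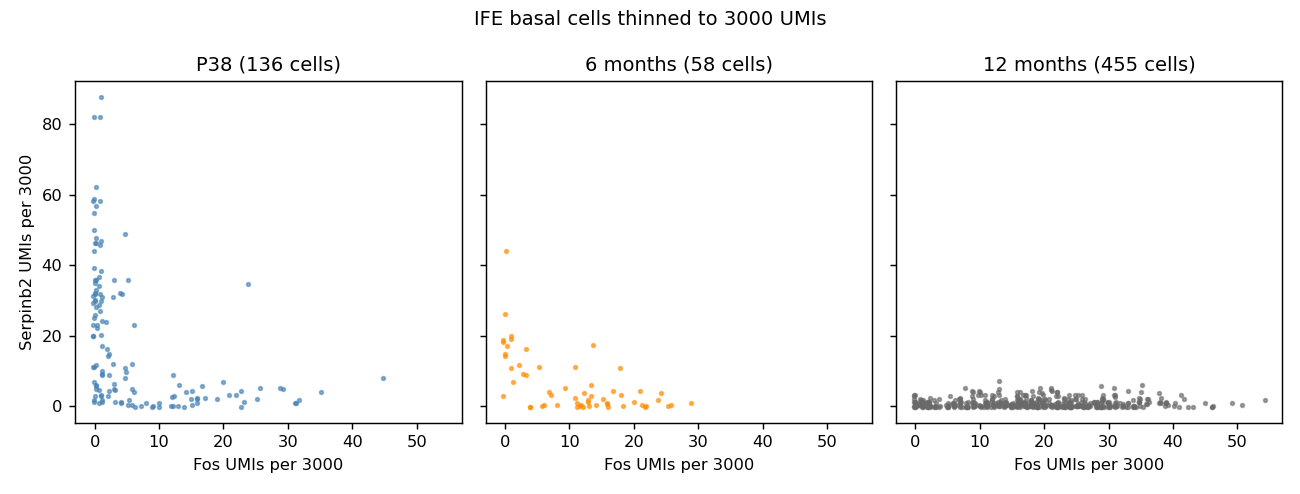
UMIs of Serpinb2 against UMIs of Fos in single IFE basal cells thinned to 3000 UMIs, 1 panel per library, with 1 point per cell moved slightly at random so that points do not hide each other. At P38 most cells rich in Serpinb2 lie near 0 Fos UMIs, and at 12 months no cell exceeds 7 Serpinb2 UMIs.

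A group of cells with Sostdc1, a secreted inhibitor of BMP and Wnt signals, was present mainly at 12 months. Sostdc1 (chromosome 12, 36314139 to 36318452) had 18, 19 and 787 UMIs, or 6.61, 21.5 and 132 CPM (4.28 for 12 months over P38, interval 3.65 to 5.08), and at least 1 UMI was found in 10 of 136 (7.35%), 3 of 59 (5.08%) and 102 of 456 cells (22.4%). T cells had 4.10 CPM at 6 months and 0 at 12 months. At 12 months the 102 cells held a median of 10818.5 UMIs, against 13621 in the cells without Sostdc1. They had 1025 CPM of Krt17, against 140 CPM in the cells without Sostdc1, 8456 against 4546 CPM of Apoe, 336 against 39.5 CPM of the growth factor gene Ptn, 211 against 4.96 CPM of the activin inhibitor gene Fst and 207 against 15.7 CPM of Aldh3a1. Krt15 was lower with 5054 against 8204 CPM, as were Sfrp1 with 5.30 against 34.3 and Wnt7b with 6.18 against 34.3 CPM. Krt17, a keratin of appendages, Aldh3a1 and Sostdc1 itself, by which the cells were picked, belong to the list of upper hair follicle genes. Cells in the gate at 12 months thus included some with several follicle genes at a higher level. For these 102 cells the interfollicular label is uncertain. Values without these cells, an alternative chosen after seeing the data, are given with the other alternatives.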

How the data were processed

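The deposited files hold UMI counts per gene and cell barcode for 3 libraries. The authors made these counts with Cell Ranger against mm10 (6.1.2 in the header for P38, 6.0.0 for 6 and 12 months, 6.1.2 in the submitters' notes), list 32285 genes and were not normalized. No column of another sample was present. A cell was kept when it had over 200 genes, under 5000, and a mitochondrial share below 15%, which left 2109 of 2397, 3502 of 4761 and 3240 of 5421 barcodes. The members and the gene lists (22 lists, 700 of 703 genes matched, and 10 lists of other cell types) were chosen with earlier results of these data known.

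UMIs were summed per class and library. Spinous cells held at least 1% Krt1 and Krt10, outer bulge cells at least 3 UMIs of Sox9 and 1 of Cd34, T cells at least 2 UMIs of Cd3 genes. Genes needed at least 10 UMIs over both classes in each library, or over both ages, and 0.5 counts were added. Ratios between ages carry exact conditional 95% intervals. Named genes were, per list, the 4 of highest level and up to 6 called members, the 10 highest and 10 lowest called genes per comparison (at least 20 UMIs in the higher class per library, or 50 for ages), the gate genes and markers and the 10 most variable genes, from which examples are given. A few genes that met the rule are not reported here. Sex-linked genes were kept apart. The Sostdc1 cells and their genes were chosen after their values were seen, as were single genes such as Cd34, Krt78, Actb and Klf5 where they stand outside this rule. No doublets were removed. An alternative left out the highest Scrublet scores in a share that grows with the barcodes of a library. Free RNA was not subtracted. Scaling, added counts, count minimum, gate thresholds, depth and single libraries were also varied. Coordinates are those of GENCODE mouse release 21 (GRCm38), joined by gene ID. The scripts were tested on simulated data. Python 3.11.15, numpy 2.4.6, scipy 1.17.1, pandas 2.3.3, matplotlib 3.10.9 and scanpy 1.11.5 were used.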

Additional observations from a re-analysis of the deposited data

Results flagged for a closer look

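Some genes were 2-fold apart between 2 ages in opposite directions in IFE basal cells and in another class of the same libraries, and these differences were not tested. For 6 months over P38, Adamts1, a secreted protease, had a log2 ratio of 1.31 in IFE basal and -1.05 in outer bulge cells, Tfap2c 1.21 and -1.32, Ovol1 1.20 and -1.68, and Scd1, a fatty acid desaturase, 1.001 and -1.23. For 12 months over P38, Sostdc1 had 4.28 in IFE basal and -1.72 in spinous cells, and Aldh3a1 1.12 and -1.21. For 12 months over 6 months, Sostdc1 had 2.58 in IFE basal and -1.35 in spinous cells. Without the cells that held Sostdc1, Aldh3a1 in IFE basal cells was at -0.28 for 12 months over P38.

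Among 2181 barcodes of the 12 months library that were not kept, 10 met the IFE basal gate, all past the mitochondrial limit and with a median of 3504 UMIs. They are in no value given above.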

How the results depend on the processing

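With 1 library per age, ratios between ages carry counting error only, and genes of few UMIs decide much of the count of calls. No paired analysis was possible because each age has 1 library. Of the alternative values for counts and shares, 137 stayed near the main value and 64 moved. Log2 ratios of named genes were recomputed as well, and 12 of those values changed sign. These were 2 of 988 for 6 months over P38, 3 of 1390 for 12 months over P38 and 7 of 1273 for 12 months over 6 months. Against spinous cells 0 of 1938 changed sign, and against outer bulge cells 0 of 1259. Without a change of sign, 161 moved against spinous and 64 against outer bulge cells, and 92, 129 and 134 between ages. Counts are given as higher and lower. Against Wnt16 positive cells 2 genes were higher with median-of-ratios or TMM scaling and with thinning to 3000 UMIs, 13 and 10 passed with Wnt16 at 3 or more UMIs, and 1 was lower without cells holding Sostdc1. For 6 months over P38, 889 genes were higher with median-of-ratios scaling, and 861 and 639 passed with TMM. With 5 added counts, 259 genes were higher against spinous cells, 42 against outer bulge cells and 0 against Wnt16 positive cells (1 lower), 90 were lower for 6 months over P38, 545 higher for 12 months over P38, and 55 and 3040 passed for 12 months over 6 months. With at least 50 UMIs, the counts were 174 and 179 against spinous, 112 and 240 against outer bulge and 0 higher against Wnt16 positive cells, 436 and 125 for 6 months over P38, 693 higher for 12 months over P38, and 340 and 918 for 12 months over 6 months. With no minimum they were 686 and 585, 1459 lower, 17 and 24, 2911 and 793, 2924 and 1920, and 3958 lower in the same order. Thinning gave 140 and 140 against spinous, 96 and 253 against outer bulge cells, and 742 higher for 6 months over P38.

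Calls over 2 libraries in place of 3 ranged over 540 to 646 higher and 465 to 581 lower against spinous cells, 343 to 432 and 912 to 1069 against outer bulge cells, and 8 to 32 and 2 to 22 against Wnt16 positive cells. The share of cells in the gate was 2.40% at 6 months and 15.96% at 12 months with Ly6a at 1 UMI, 4.46% at P38 and 12.6% at 12 months with Ly6a at 0.02% of UMIs, 3.32%, 0.628% and 5.03% at P38, 6 months and 12 months with Krt14 and Krt5 at 2%, 3.49% at 6 months with at least 1000 genes per cell, and 2.48% at P38 and 9.65% at 12 months after thinning. With Krt14 and Krt5 at 2%, no outer bulge cell was left at 12 months, and these log2 ratios changed sign: Ccl2 at -0.027 and Rrm1 at -0.28 for 6 months over P38, Cldn4 at 0.50 for 12 months over P38, and Dcn at -1.23, Mmp3 at 0.075, Ly6g6c at 1.02 and Asprv1 at 1.79 for 12 months over 6 months. After thinning, Fst was at -0.14 for 12 months over 6 months. Without cells holding Sostdc1, chosen after seeing the data as was the Wnt16 threshold, Bcl2a1b was at -0.93 for 12 months over P38 and -2.51 over 6 months, Aldh3a1 at -0.28 over P38 and Fst at -0.99 over 6 months. The cause of these shifts was not tested. Leaving out cells with fibroblast transcripts, also chosen after seeing the data, moved no count by more than 1.5 times.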
